A study of Mus musculus with 126 samples.

Results

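The replication-dependent histone genes encode the bulk of the linker histone H1 and of the core histones H2A, H2B, H3 and H4. Those described here lie in the Hist1 cluster on chromosome 13 and the Hist2 cluster on chromosome 3 of the mouse. Members were all probe sets whose single platform symbol is H1f1 to H1f5 or begins with Hist1h, Hist2h, H2ac, H2bc, H3c or H4c. The rule found 26 of the 41345 probe sets on the array, for 25 genes: 4 of H1, 7 of H2A, 8 of H2B and 7 of H4. None was of H3, since every H3 probe set carries several symbols. Of the 26, 20 were on chromosome 13 and 6 on chromosome 3. H2ac21 was measured by 2 probe sets, a bright and a dim one, which are given apart throughout.

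These genes were measured in 126 primary prostate tumors, 1 Affymetrix Mouse Gene 2.0 ST array per mouse. The mice were transgene-positive F2 males of a cross between TRAMP and NOD/ShiLtJ mice. TRAMP mice (transgenic adenocarcinoma of the mouse prostate) express the SV40 T antigens under the probasin promoter, which is active in prostate epithelium, and every male carried this transgene, so no tumor-free or transgene-negative tissue was among the samples. Tumors were taken at 30 weeks of age or at a humane endpoint. Of the males, 87 had distant metastasis and 39 had none on record. Primary tumor burden, the tumor weight in g, was 4.59 ± 3.01 g (SD, n = 126), with a median of 4.535 g and a range of 0.1 to 14 g, and 15 tumors weighed under 1 g. The array of mouse N1202, a tumor of 0.4 g without metastasis, had a mean correlation of 0.880 with the other arrays, against 0.915 for the next lowest, and the lowest level of H2ac20, H2bc12 and H2bc9 of all tumors.

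Replication-dependent histone genes are transcribed in S phase, when new DNA has to be packed into nucleosomes. Their mRNAs typically have no introns and end in a conserved stem-loop in place of a poly(A) tail. The stem-loop binding protein Slbp, together with the coactivator Npat at the histone locus body, ties their output to DNA replication. In the annotation H2bc22 and H2bc21 cover a longer stretch than the other members. Whether each member has such an mRNA was not tested. Their mRNA is high in cells that replicate DNA and low in cells that have left the cycle. A pair of them, H2ac1 (TH2A) and H2bc1 (TH2B), is known instead from the testis and the early embryo.

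The bases upstream of the start site of a few of these genes are shown, since the upstream windows of the testis pair are described below. A relation between promoters and co-expression was not tested. The sequences are RefSeq annotation, build GRCm38.p6, 5′ to 3′ on the strand of the gene. Capitals mark the TATA box (TATAAA), the CCAAT box, the octamer (ATTTGCAT) and the H1 box (AAACACA), each read on either strand. The first is the stretch between H2ac1 and H2bc1, transcribed away from each other from starts with 280 bases between them, so that most of it also lies upstream of H2bc1. H2bc3 and H1f5 are members that followed tumor burden and Mki67, and H1f2 is a member that passed the test for neither. They are examples, and TATAAA, present in H2bc3 and H1f5 and absent from H1f2, did not separate the members in this way. It was also absent from H2ac10, H2bc18, H2bc9, H2bc14 and H4c1, which followed both. H1f3 and H4c12 had it and passed neither test.
H2ac1, chr13:23934187-23934436 (+ strand): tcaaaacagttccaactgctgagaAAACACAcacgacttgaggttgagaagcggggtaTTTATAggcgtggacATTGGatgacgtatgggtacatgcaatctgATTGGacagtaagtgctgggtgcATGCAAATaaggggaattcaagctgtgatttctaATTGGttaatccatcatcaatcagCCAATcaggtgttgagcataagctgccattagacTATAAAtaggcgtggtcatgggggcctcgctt
H2bc3, chr13:23746484-23746733 (+ strand): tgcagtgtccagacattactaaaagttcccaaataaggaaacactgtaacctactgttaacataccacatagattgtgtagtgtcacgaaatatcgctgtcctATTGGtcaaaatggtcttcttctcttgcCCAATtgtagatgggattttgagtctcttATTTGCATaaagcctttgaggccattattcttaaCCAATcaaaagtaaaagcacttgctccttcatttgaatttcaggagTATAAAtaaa
H1f5, chr13:21780626-21780875 (- strand): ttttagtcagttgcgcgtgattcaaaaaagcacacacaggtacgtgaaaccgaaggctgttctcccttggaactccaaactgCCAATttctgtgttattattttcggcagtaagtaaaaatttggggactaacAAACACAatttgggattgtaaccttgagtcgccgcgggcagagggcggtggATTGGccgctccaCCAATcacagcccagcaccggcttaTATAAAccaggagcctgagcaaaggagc
H1f2, chr13:23738557-23738806 (+ strand): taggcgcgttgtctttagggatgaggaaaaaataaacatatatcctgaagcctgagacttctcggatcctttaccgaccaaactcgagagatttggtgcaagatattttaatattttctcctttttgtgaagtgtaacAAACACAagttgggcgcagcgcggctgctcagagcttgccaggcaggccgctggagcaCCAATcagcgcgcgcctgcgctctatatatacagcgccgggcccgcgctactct
The promoter of 23 of the 25 genes was in the RefSeq table. In the 250 bases before the start, TATAAA stood in 13 of the 23 (56.5%), against 12.4% of all 32851 promoters. CCAAT stood in 18 of 23 (78.3%), against 33.9% of all, and these were every H1, H2A and H2B promoter and 1 of 6 H4 promoters. ATTTGCAT stood in 5 of 7 H2B and 3 of 6 H2A promoters and in no H1 or H4 promoter, against 1.60% of all. AAACACA stood in 3 of 4 H1, 1 of 6 H2A and 2 of 7 H2B promoters and in no H4 promoter, against 6.25% of all. Each motif was counted on its own, overlaps with the others included, and a match is a description of the letters and not a bound site. The windows of H2ac1 and H2bc1 overlap, and so do those of H2ac12 and H2bc12. A match in a shared stretch counts for both genes, so the H2A and H2B counts are not of wholly separate promoters.

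Levels are RMA values on the log2 scale, which can be compared between tumors for a probe set but not between probe sets. Of the 26 members, 23 had a mean at or above the 10th percentile of all means (3.42), and these were tested: 4 of H1, 6 of H2A, 8 of H2B and 5 of H4. H2ac12, H4c2 and H4c8 were below it, at 3.05 ± 0.24, 3.10 ± 0.19 and 2.89 ± 0.20 (SD, n = 126). The copies of a histone class have nearly the same coding sequence, so a probe set with 1 platform symbol may also take up RNA of other copies, which was not tested. A tumor sample is a mixture of cells, and fewer cells of a type cannot be told apart from less RNA per cell.

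The members differed widely in how much they varied between tumors. The testis gene H2bc1 had the largest SD, at 1.27 (range 2.90 to 8.97, a 67.2-fold span). H2ac1 followed with an SD of 0.97 (6.36 to 11.89), and H2bc12, an H2B gene of the Hist1 cluster, with 0.77 (5.95 to 10.49). At the other end were the dim H2ac21 probe set with an SD of 0.18 and the untested H4c2 and H4c8. H2ac15, an H2A gene, had a span of 85.5-fold, from 3.68 to 10.09, but the lowest value was that of a single tumor without metastasis, and the next lowest was 6.83.

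**Figure D1:**
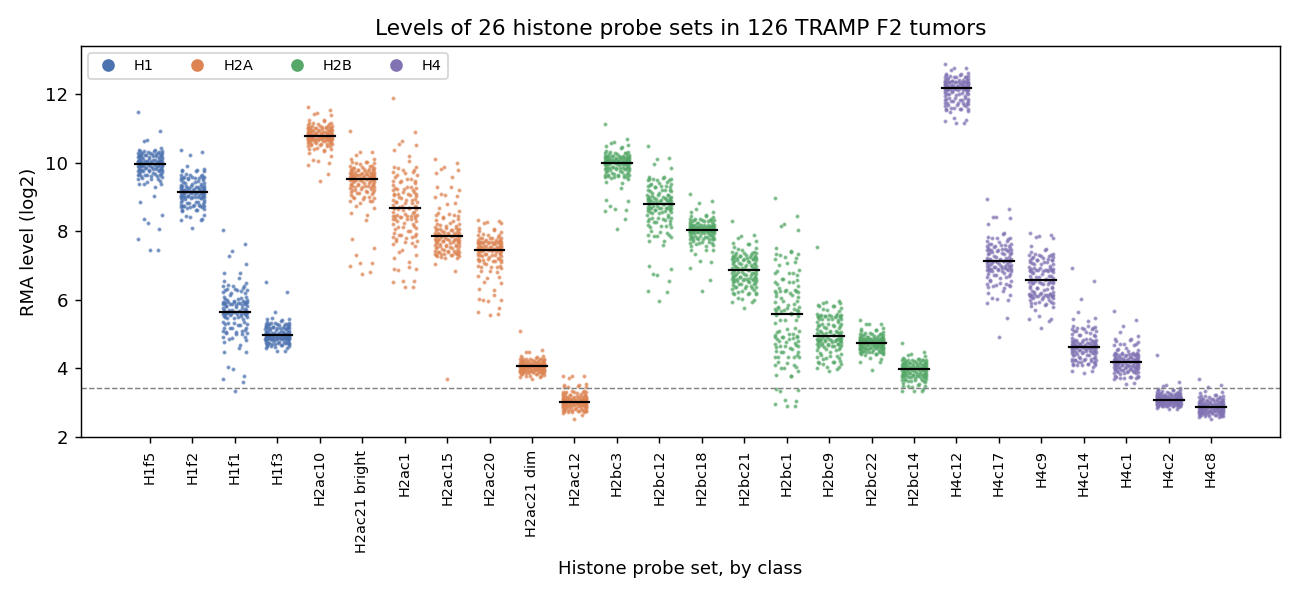
RMA level (log2, vertical axis) of each of the 26 histone probe sets, grouped by class, with a point for each of 126 tumors and a bar at the median. The dashed line is the 10th percentile of all means (3.42). H2bc1 and H2ac1 had the widest spread (SD 1.27 and 0.97), and H1f5, H2ac21 bright and H2bc3 had a small group of low tumors.

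Tumors of higher burden had higher levels of most replication-dependent histone genes. Of the 23 tested members, 14 rose with primary tumor burden and none fell (limma, Benjamini-Hochberg over 23507 probe sets, threshold 0.05), against a background of 20.3% of all probe sets that rose and 16.4% that fell. The 14 were 2 of 4 H1, 3 of 6 H2A, 6 of 8 H2B and 3 of 5 H4 members, and 11 of 17 in the Hist1 and 3 of 6 in the Hist2 cluster. The Hist1 cluster lies within a locus that the study linked to primary tumor burden in this cross. The study also reported that genotype there goes with the expression of several Hist1 genes. Genotypes were not used here, and their part in these slopes was not tested. The median slope over the 23 members was 0.041 log2 units per g, against 0.0036 over all probe sets tested. With each array centred on its median, 16 members rose, against a background of 30.7%.

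Among the H2A genes, H2ac10 of the Hist1 cluster had the smallest adjusted p. Its median was 10.48 in the 15 tumors under 1 g, 10.77 in the 40 of 1 to under 4 g, 10.79 in the 42 of 4 to under 7 g and 10.91 in the 29 of 7 g and over. It rose by 0.046 log2 units per g (SE 0.0087, or 3.27% per g, adjusted p = 1.42e-05). The ranges overlapped, from 9.47 to 11.06 under 1 g and from 10.49 to 11.62 at 7 g and over. Pearson's r was 0.431 and Spearman's rho 0.389 (permutation p = 1e-05 for each, the smallest that 100000 resamples can give), r was 0.390 without the 2 tumors farthest from the median burden, and from 0.166 to 0.635 within 4 ranges of the mouse tag number in the sample names, which has no stated meaning as a batch.

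H2ac20 and H2ac21, H2A genes that neighbour each other in the Hist2 cluster, rose by more per g. H2ac20 had medians of 6.81, 7.38, 7.51 and 7.62 in the 4 burden ranges in rising order, and a slope of 0.079 log2 units per g (SE 0.015, adjusted p = 2.18e-05, limma). Bright H2ac21 had medians of 8.87, 9.44, 9.63 and 9.61, and a slope of 0.093 (SE 0.019, adjusted p = 5.59e-05). The largest step in the medians of each lay between the tumors under 1 g and those of 1 to under 4 g. The dim probe set of H2ac21 had a slope of -4.84e-05 (SE 0.0055, adjusted p = 0.996), so the 2 probe sets of this gene disagreed on the call. The dim one had a mean of 4.06 and a range of 3.69 to 5.07, with its highest value in the array of N1202. At so low a level it may miss a slope.

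Of the H2B genes, H2bc12 had the steepest slope of all members, at 0.11 log2 units per g (SE 0.021, or 7.84% per g, adjusted p = 1.69e-05, limma). Its medians were 8.11, 8.66, 8.90 and 9.01 in the 4 burden ranges in rising order. H2bc3 rose by 0.061 per g (SE 0.012, adjusted p = 3.27e-05), with medians of 9.63, 9.92, 10.07 and 10.04. H2bc18, H2bc9, H2bc22 and H2bc14 rose by 0.017 to 0.044 per g, with adjusted p from 0.00426 to 0.0430. Of these, H2bc14 (3.32 to 4.72) and H2bc22 (3.96 to 5.39) were dim in every tumor. H2bc21, an H2B gene of the Hist2 cluster, had the lowest slope of all members, at -0.011 (SE 0.014, adjusted p = 0.565).

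In the H1 class, H1f5 and H1f1 rose and the other members did not pass the test. H1f5 had medians of 9.39 under 1 g, 9.89 at 1 to under 4 g and 10.04 at 7 g and over, and rose by 0.074 log2 units per g (SE 0.016, adjusted p = 9.73e-05, limma). H1f1 (older name Hist1h1a), a linker histone of cycling cells, rose by 0.062 per g (SE 0.021, adjusted p = 0.0143), with medians of 5.24, 5.71, 5.89 and 5.70. Its r with burden was 0.253 (rho = 0.226, permutation p = 0.00442 and 0.0115), and 0.174 without the 2 tumors farthest from the median. H1f3 had a slope of 0.020 (SE 0.0082, adjusted p = 0.0516) and H1f2, known as a linker histone also made outside S phase, 0.0091 (SE 0.012, adjusted p = 0.585).

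In the H4 class, H4c1 (older name Hist1h4a) rose by 0.037 log2 units per g (SE 0.010, adjusted p = 0.0018, limma), H4c17 by 0.058 (SE 0.017, adjusted p = 0.00362) and H4c9 by 0.041 (SE 0.017, adjusted p = 0.0434). H4c1 was dim in every tumor (3.53 to 5.66), and within tag number ranges its r with burden ran from -0.190 to 0.791. H4c12 (0.021, adjusted p = 0.100) and H4c14 (0.011, adjusted p = 0.564) did not pass. H4c8 (older name Hist1h4h) was among the 3 members below the filter, and its r with burden was 0.0975 (permutation p = 0.277). The study lists Hist1h1a, Hist1h4a and Hist1h4h among its candidate genes for primary tumor burden. For each it reported a positive correlation with burden past its threshold. The H4c8 value here is below that of the study for Hist1h4h. Whether this dim probe set reads the transcript the study used was not tested.

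The lowest counts came from 2 alternatives. In the 111 tumors of at least 1 g, 6 members rose, against 3.7% of all probe sets. These were H2ac10, H2ac20, bright H2ac21, H2bc3, H2bc12 and H4c1. The other had as a covariate the mean of RNAs that have no poly(A) tail (small nucleolar and small nuclear RNAs and the like). These were measured by 89 probe sets, some RNAs by more than 1. In that fit 6 members rose, against 15.2% of all, with H1f5 in place of H4c1. The mean of the members had r = 0.541 with that mean of RNAs without a poly(A) tail, whose r with burden was 0.355. Of the 88 probe sets of such RNAs that were tested, 35 rose with burden and 2 fell, against 20.3% and 16.4% of all. The part of RNA yield or amplification in these slopes was not tested.

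**Figure D2:**
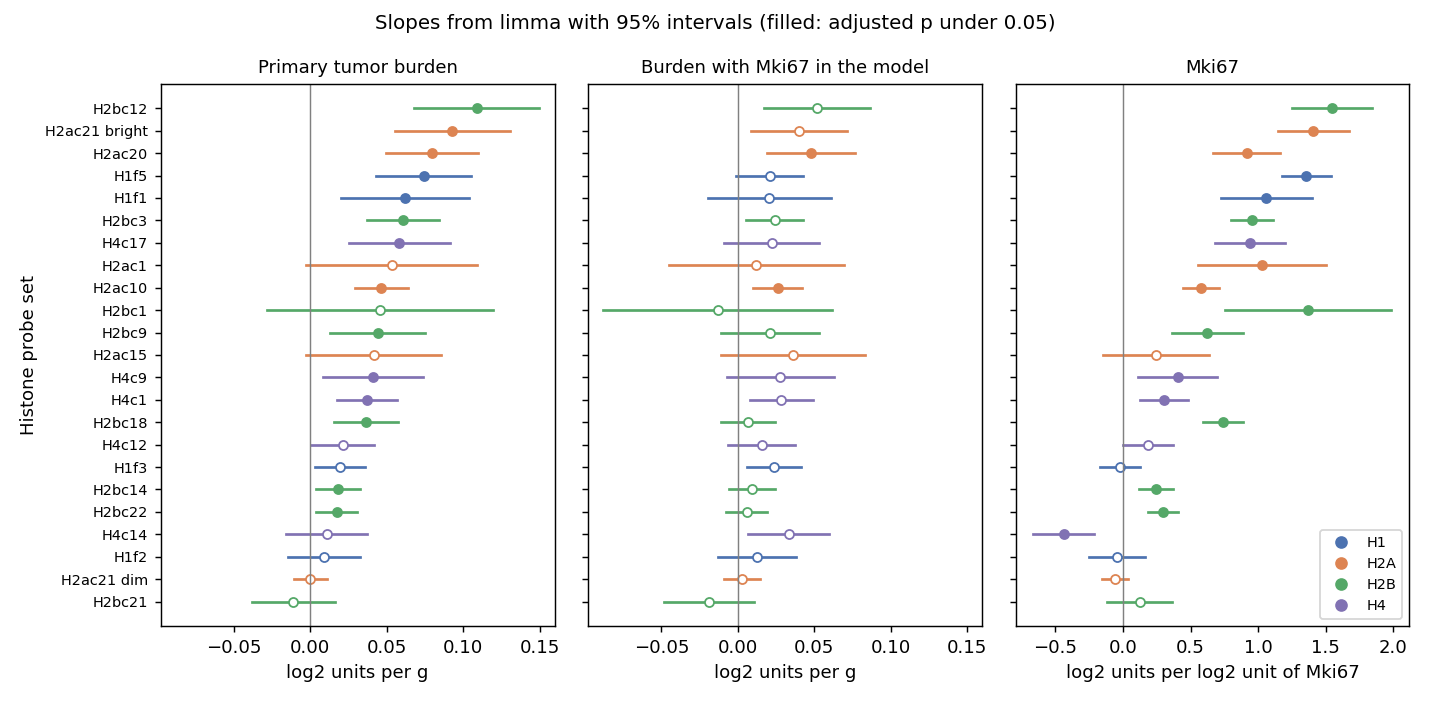
Slopes of the 23 tested histone probe sets from limma with 95% confidence intervals, on burden (left, log2 units per g), on burden with Mki67 in the model (middle) and on Mki67 (right, log2 units per log2 unit), over 126 tumors. Filled points have an adjusted p under 0.05, 14 on the left, 2 in the middle and 17 on the right, and colours are histone classes.

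Mki67, the proliferation antigen Ki-67, had a mean of 11.60 ± 0.34 (SD), a median of 11.68 and a range of 9.74 to 12.16. In 7 tumors it was below 11. These weighed 0.1 to 4.9 g (median 0.46 g), 4 from males with and 3 from males without metastasis. Of the 23 members, 16 rose and 1 fell with Mki67 (limma, Benjamini-Hochberg over 23506 probe sets), against a background of 30.8% that rose and 26.9% that fell. The median slope was 0.58 log2 units per log2 unit of Mki67, against 0.012 over all probe sets.

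H1f5 had the highest Pearson r with Mki67, though not the highest rho, which was that of H4c17 (0.369). It was between 7.43 and 10.93 (median 10.01) in the 87 males with metastasis and between 8.22 and 11.47 (median 9.83) in the 39 without, and rose by 1.35 log2 units per log2 unit of Mki67 (SE 0.092, adjusted p = 2.29e-27, limma). Pearson's r was 0.796 and Spearman's rho 0.273 (permutation p = 1e-05, the smallest possible, and 0.00186). In the 7 tumors with Mki67 below 11, H1f5 was between 7.43 and 8.86, while in the other 119 it started at 8.22. In those 119, a limit chosen after the values were seen, r was 0.414, and the slope was 0.97 (adjusted p = 3.18e-05). Within the 4 tag number ranges r was 0.785 to 0.872.

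Other members with a high r also had a lower rho. H2bc3 had r = 0.732 and rho = 0.282 with Mki67, and r = 0.301 at Mki67 of at least 11. Bright H2ac21 had r = 0.682 and rho = 0.108, and r = 0.181 at Mki67 of at least 11, where its slope no longer passed (0.55, adjusted p = 0.121, limma). For H2bc12 the 3 values were 0.678, 0.306 and 0.274, for H2bc18 0.667, 0.260 and 0.289, and for H2ac10 0.602, 0.285 and 0.249. H4c17 and H1f1 had r = 0.539 and 0.488 over all tumors and 0.413 and 0.379 at Mki67 of at least 11. In these 119 tumors 8 members rose and none fell (15.4% of all probe sets rose). They were H1f1, H1f5, H2ac10, H2bc3, H2bc9, H2bc12, H2bc18 and H4c17.

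The member that fell was H4c14, an H4 gene of the Hist2 cluster. Its slope on Mki67 was -0.44 (SE 0.11, adjusted p = 0.000415, limma), with r = -0.327. Its highest values, 6.92 and 6.55, were those of 2 of the 7 tumors with Mki67 below 11. Spearman's rho was 0.0022 (permutation p = 0.981), and r was -0.0042 at Mki67 of at least 11. The members that passed in neither direction included H1f2 (r = -0.0369), H1f3 (-0.0289), H2bc21 (0.0888), H2ac15 (0.109) and dim H2ac21 (-0.114).

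**Figure D3:**
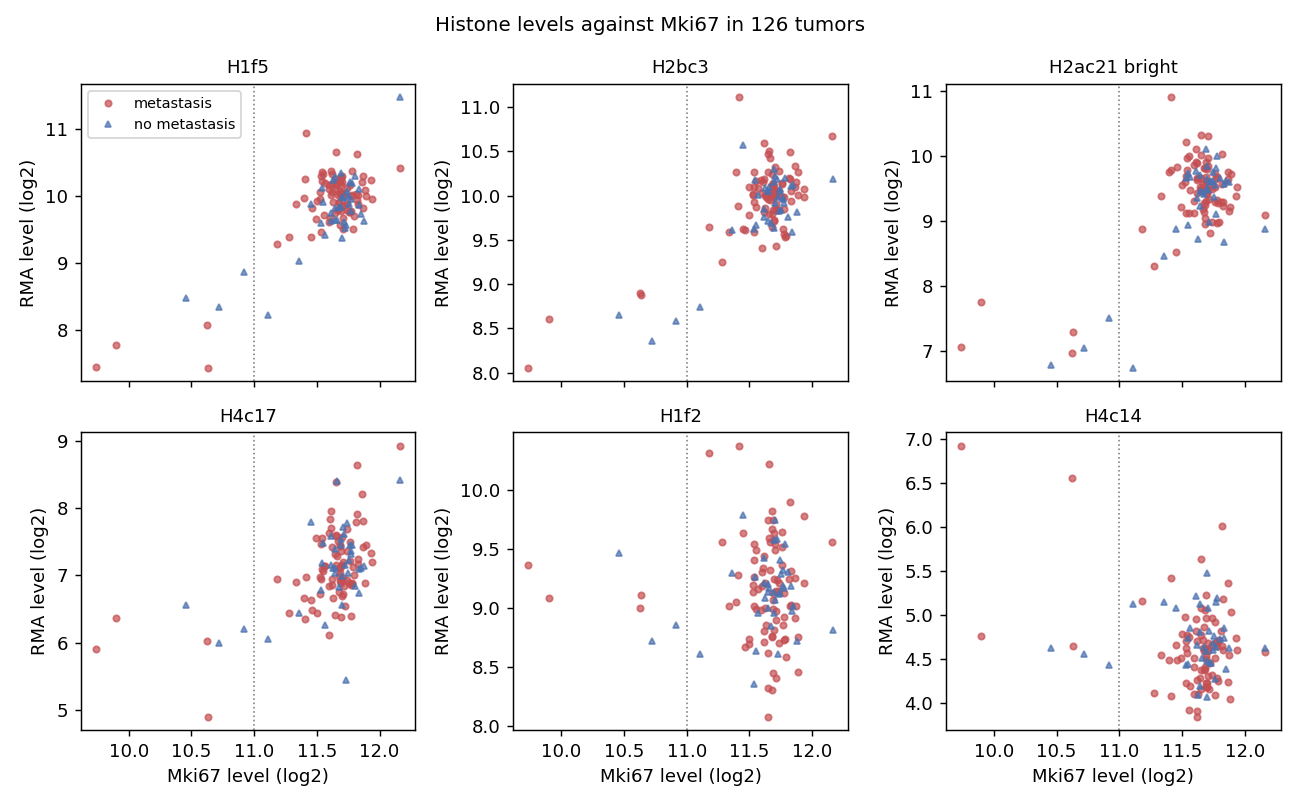
RMA level of 6 histone probe sets (vertical axes, log2) against the Mki67 level (horizontal axis, log2) in 126 tumors, 87 from males with metastasis (circles) and 39 from males without (triangles). Left of the dotted line at 11 lie 7 tumors, which were low in H1f5, H2bc3 and bright H2ac21, while H1f2 had r = -0.0369 and H4c14 r = -0.327.

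With Mki67 in the model, 2 members rose with burden, against 2.66% of all probe sets that rose and 3.22% that fell, and 8 members had an unadjusted p under 0.05, against 20.9% of all. The 2 were H2ac20 (0.048 log2 units per g, SE 0.015, adjusted p = 0.0319) and H2ac10 (0.026, SE 0.0080, adjusted p = 0.0335, limma). None passed without the 2 tumors of most extreme burden, where 1.28% of all probe sets rose, in tumors of at least 1 g (0.94%), or with the RNAs without a poly(A) tail as a covariate (0.85%). In these 3 fits 5, 9 and 5 members had an unadjusted p under 0.05, against 18.8%, 16.7% and 17.8% of all probe sets. H2bc12 had a slope of 0.052 (SE 0.017, adjusted p = 0.0557). The median over the members was 0.021 per g, against 0.041 without Mki67 in the model. With the mean of 20 epithelial junction genes in the model, no member passed, against 0.243% of all probe sets that rose and 0.221% that fell (0.464% in all), so the count of 0 is close to that background. In that model 5 members had an unadjusted p under 0.05, against 13.1% of all probe sets. That mean had r = -0.503 with burden, -0.709 with Mki67 and -0.563 with the mean of the histone members.

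Markers of several cell types moved with these relations. The mean of the luminal prostate markers had r = -0.532 with the mean of the histone members and -0.716 with Mki67, that of the smooth muscle markers -0.610 and -0.758, and that of the neuroendocrine markers 0.640 and 0.762. With burden, 18 of 20 epithelial junction genes, 7 of 8 luminal and 10 of 10 smooth muscle markers fell, and 9 of 14 neuroendocrine markers rose. Among all probe sets, 16.4% fell and 20.3% rose with burden. The log2 of the mean linear level of the luminal markers was between 5.37 and 10.14 (median 6.76) in males with metastasis and between 5.34 and 10.22 (median 6.77) in those without. For the smooth muscle markers it was between 6.45 and 10.82 with and between 6.57 and 10.70 without metastasis, for the epithelial junction genes between 6.51 and 10.27 with and between 6.61 and 10.28 without, and for the neuroendocrine markers between 6.86 and 10.31 with and between 6.57 and 10.28 without. All markers of these 4 lists had means above the filter, but Pbsn (probasin), a secretory protein of the prostate, had a median of 3.67 with a highest value of 11.51. The part of cell composition in the histone slopes was not tested.

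No histone gene differed between males with and without distant metastasis past the threshold. No member passed the test (limma, 0 of 23507 probe sets), 1 member and 3.72% of all probe sets had an unadjusted p under 0.05, and the methods' t-test and the Wilcoxon rank sum test also gave 0 members after Benjamini-Hochberg adjustment and 1 before it. That member was H2ac20, which was between 5.76 and 8.33 (median 7.46) in the 87 males with metastasis and between 5.55 and 8.08 (median 7.44) in the 39 without. The groups overlapped almost wholly, and the difference in means was 0.25 log2 units (95% interval 0.0415 to 0.464, adjusted p = 0.985, permutation p of that gene alone 0.020). For bright H2ac21 the difference was 0.22 (-0.0403 to 0.484), for H4c9 0.17 (-0.0422 to 0.390) and for H1f5 0.15 (-0.0652 to 0.369). For H4c17 it was 0.0037 (-0.221 to 0.228). The dim, untested H4c2 and H4c8 had differences of -0.073 and -0.078 (unadjusted permutation p = 0.0447 and 0.0440). The slopes on burden did not differ between the males with metastasis and those without past the threshold in any member either (lowest adjusted p of the interaction 0.287), with 2 of 23 members and 13.5% of all probe sets at an unadjusted p under 0.05. Those 2 were the probe sets of H2ac21, with interaction terms of opposite sign, and neither kept an unadjusted p under 0.05 without the array of mouse N1202.

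The members were positively correlated with each other, but loosely. Over the 253 pairs of tested members the median r was 0.29, against 0.002 over all pairs of tested probe sets, and 52 pairs were above 0.5 while 16 were below 0. These are descriptions over 126 arrays that share the same normalization. The median was 0.32 for pairs of the same class and 0.28 for pairs of different classes, 0.33 within the Hist1 cluster, 0.15 within Hist2 and 0.24 between them. Genes of a cluster are inherited together in this cross, and the part of genotype in these values was not tested. At Mki67 of at least 11 the median over all pairs was 0.28 and 33 pairs were above 0.5.

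A core of members carried most of the high correlations. H2bc3 had r = 0.830 with H2ac10, 0.823 with H1f5, 0.820 with H2bc12 and 0.803 with H2bc18, which lies in the other cluster. These 4 values were 0.734, 0.642, 0.669 and 0.675 at Mki67 of at least 11. H1f1 had r = 0.775 with H4c17. H4c14 stood at the other end, with a median r of 0.0031 with the other members and -0.270 with H1f5, and H2bc21 had a median of 0.0788. At Mki67 of at least 11, H4c14 had r = 0.0122 with H1f5, 0.277 with H2bc12, 0.329 with H2bc18 and 0.479 with H1f3, so its negative value with H1f5 rested on the 7 tumors below that limit.

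**Figure D4:**
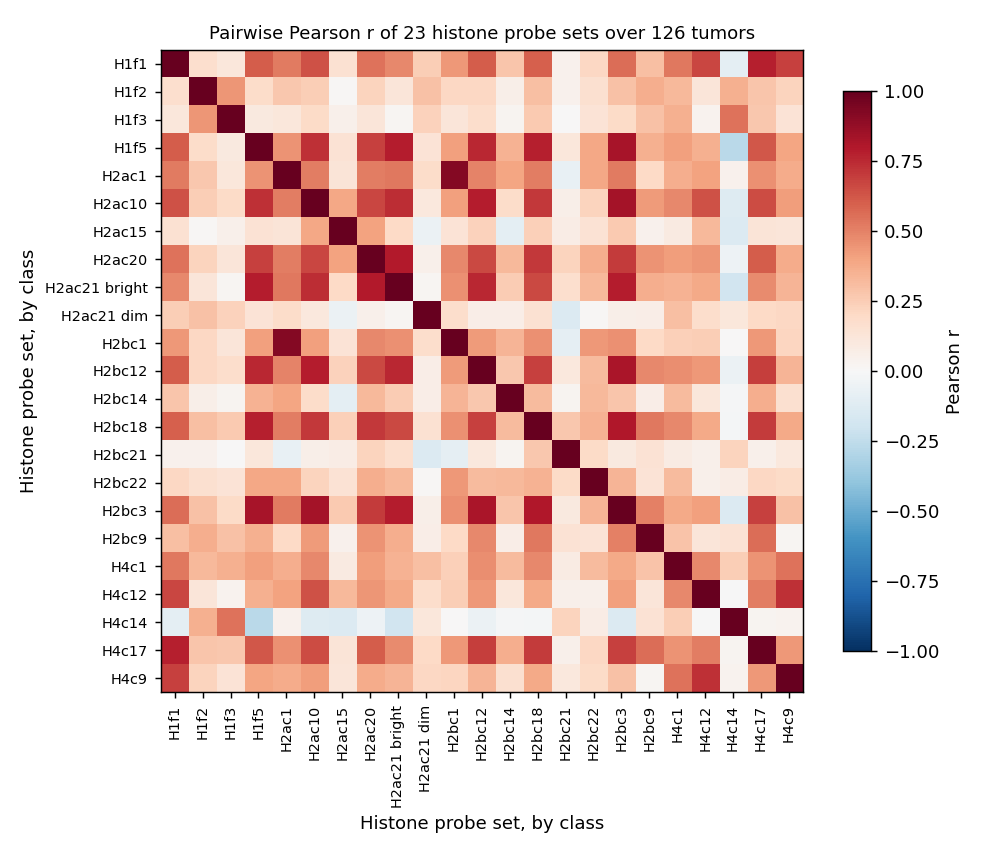
Pearson r (colour, from -1 in blue to 1 in red) between the 23 tested histone probe sets over 126 tumors, ordered by class on both axes. Off the diagonal, the darkest pair is H2ac1 with H2bc1 (r = 0.916), and most cells in the rows of H2bc21, dim H2ac21 and H4c14 are pale.

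The highest correlation was that of the testis pair. H2ac1 and H2bc1, whose upstream windows overlap and each hold all 4 motifs, had r = 0.916 over all tumors. It was 0.912 in the males with metastasis and 0.925 in those without, 0.873 to 0.959 within the 4 tag number ranges, and 0.903 after the linear relation of each with Mki67 was taken out. H2bc1 was between 2.90 and 8.97 (median 5.59) in males with metastasis and between 2.94 and 8.43 (median 5.53) in those without. H2ac1 was between 6.36 and 11.89 (median 8.66) in the males with metastasis and between 6.38 and 10.64 (median 8.66) in those without.

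Neither gene of the pair passed the test for burden. H2bc1 had a slope of 0.045 log2 units per g (SE 0.037, 95% interval -0.0285 to 0.119, adjusted p = 0.356, limma) and H2ac1 0.053 (SE 0.028, -0.00297 to 0.109, adjusted p = 0.134). The medians of H2bc1 in the 4 burden ranges in rising order were 4.96, 5.71, 5.64 and 5.13. Both rose with Mki67, H2bc1 by 1.37 (SE 0.31, adjusted p = 6.11e-05) and H2ac1 by 1.03 (SE 0.24, adjusted p = 9.06e-05) log2 units per log2 unit, but neither passed at Mki67 of at least 11 (adjusted p = 0.195 and 0.678). The mean of 6 spermatogenic genes had r = -0.159 with the mean of the pair, and Prm1, a protamine of spermatids, was between 4.38 and 5.63 in all tumors. The mean of the pair had r = 0.662 with the mean of the histone members, which includes the pair, 0.497 with that of the 14 neuroendocrine markers, 0.424 with the mitosis genes, 0.371 with the replication-independent histone genes and -0.392 with the epithelial junction genes.

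**Figure D5:**
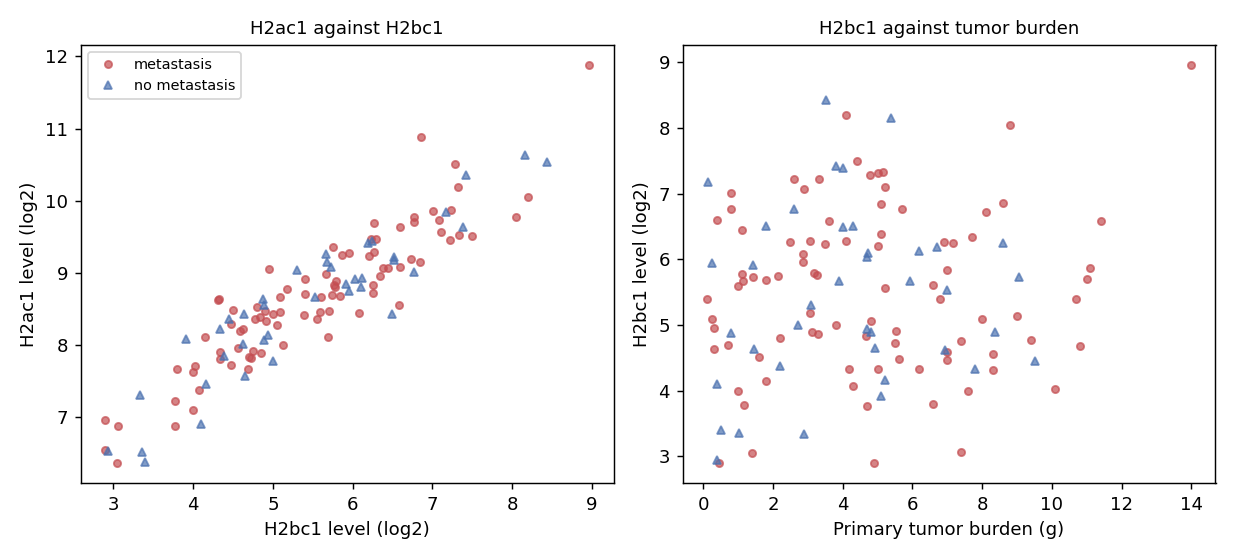
Left, RMA level of H2ac1 against that of H2bc1 (log2) in 87 tumors of males with metastasis (circles) and 39 of males without (triangles), with r = 0.916 over all. Right, H2bc1 level (log2) against primary tumor burden (g), where H2bc1 lay between 2.90 and 7.17 under 1 g and between 3.07 and 8.97 at 7 g and over.

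Genes that make and process histone mRNA rose more often than they fell. Of 24 genes of histone mRNA transcription and processing, 17 rose and 1 fell with burden, and 19 rose and 2 fell with Mki67. Over all probe sets, 20.3% rose and 16.4% fell with burden, and 30.8% rose and 26.9% fell with Mki67, which is also the background for the lists that follow. Slbp, the stem-loop binding protein, which is also on the S phase list, rose by 0.031 log2 units per g (SE 0.0075, adjusted p = 0.000514) and by 0.61 per log2 unit of Mki67 (SE 0.046, adjusted p = 4.31e-24, limma). Npat, the coactivator at the histone locus body, rose by 0.027 per g (adjusted p = 0.00296), and Cstf2, a cleavage stimulation factor subunit, by 0.036 (SE 0.0090, adjusted p = 0.000726). Tut7, a terminal uridylyltransferase, fell by 0.017 per g (SE 0.0050, adjusted p = 0.00416).

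Of 22 histone chaperones, 14 rose and 1 fell with burden and 18 rose with Mki67 (over all probe sets 20.3% and 30.8% rose). Nasp, a chaperone of H1 and of the H3-H4 pair, rose by 1.25 log2 units per log2 unit of Mki67 (SE 0.068, adjusted p = 2.88e-35, limma). With burden it rose by 0.065 per g (adjusted p = 8.45e-05), and Nap1l1, a chaperone of H2A-H2B, by 0.044 (adjusted p = 2.22e-05). Of 12 genes listed as replication-independent histone genes, 6 rose with burden and 7 with Mki67. Whether each of them is transcribed outside S phase was not tested. Among the 7 were Cenpa, the centromeric H3 variant (1.27 per log2 unit of Mki67, SE 0.064, adjusted p = 3.96e-38), and H2ax, the variant phosphorylated at DNA breaks (0.97, SE 0.086, adjusted p = 1.74e-19). Of the S phase genes 24 of 25 rose with burden and 25 of 25 with Mki67, and of the mitosis genes 19 of 19 with burden and 18 of 18 with Mki67, which was itself left out. None of these lists had a gene that passed the test for metastasis.

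The mean of the tested members, in SD units per gene, had r = 0.597 with Mki67, 0.585 with the mean of the S phase genes, 0.647 with that of the mitosis genes and 0.405 with burden, as descriptions over 126 tumors. At Mki67 of at least 11 the first 3 were 0.298, 0.310 and 0.395, and that with burden 0.336. The 10 probe sets with 1 symbol outside the members that were most like this mean were H4f16, Ube2s, Hmgb2, Csrnp2, Cdkn2d, Cdk1, Sapcd2, Fbxo5, Cdc20 and Prmt1, with r from 0.790 to 0.717 over all tumors and from 0.671 to 0.542 at Mki67 of at least 11. H4f16 is itself a histone H4 gene outside the symbols of the rule, Ube2s and Cdc20 act with the anaphase-promoting complex, Fbxo5 inhibits it, and Cdk1 is the kinase that drives entry into mitosis.

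The 37 probe sets that carry several histone symbols, among them all of H3, were kept apart as their signal cannot be given to 1 gene. Of the 30 that passed the filter, 16 rose with burden and none fell, against 20.3% of all probe sets that rose, and 16 rose and 2 fell with Mki67, against 30.8% and 26.9%. Among the 8 of H3, 4 rose with burden and 3 rose and 1 fell with Mki67, and 3 of 8 is near the Mki67 background. Among the 9 of H2A, 8 rose with burden and 9 with Mki67 (limma). The 30 include 3 pairs of probe sets with identical values, of H2A and of H2B. Both probe sets of each pair rose with burden and with Mki67 and were counted apart. The counts of rising probe sets for all 30, for H2A and for H2B therefore hold repeated values.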

How the data were processed

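Per the labels and the methods, the authors hybridised tumor RNA to Affymetrix Mouse Gene 2.0 ST arrays and made RMA values on the log2 scale in Partek (version: not given in the sources used here). The deposited log2 values of 41345 probe sets in 126 tumors were used as they are. Members and gene lists were chosen with earlier results of these data known. Probe sets were named from the platform table, and 23507 with a symbol and a mean of at least the 10th percentile (3.42) were tested with limma 3.58.1 (R 4.3.3) on burden, metastasis and Mki67, with Benjamini-Hochberg adjustment at 0.05. For Mki67 its own probe set was left out. Single correlations used 100000 permutations, two-sided (scipy 1.17.1). P-values measure the spread between males. Precision is limited by how many arrays there are, and the fitting code was tested on simulated data.

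Named members were, by class, those with the smallest p for burden and metastasis and the highest and lowest r with Mki67, those of largest and smallest SD, the 5 highest pairs, the testis genes and the histone candidates of the study. Other named members were chosen after their values were seen. From each list up to 4 genes by p or r were eligible. Alternatives changed the filter, array scaling, arrays, covariates, burden scale and test. Promoter sequences and positions are from RefSeq (GRCm38.p6).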

Additional observations from a re-analysis of the deposited data

How the results depend on the processing

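With burden, 14 members were called, and 6 with the mean of RNAs without a poly(A) tail as a covariate or in tumors of at least 1 g. The other 12 alternatives gave 10 to 16. The share of all probe sets called in either direction was 36.7% in the main fit. It was 28.1% with that covariate, 8.24% in tumors of at least 1 g and 31.1% to 48.5% in the others. Without the array of N1202 the count was 14, of which 13 were shared. With Mki67, 17 were called, 11 by Spearman rank correlation and 8 at an Mki67 level of at least 11, a limit chosen after seeing the data. The others gave 14 to 19. Of all probe sets, 57.7% were called with Mki67, 34.8% by rank, 30.5% at Mki67 of at least 11 and 43.5% to 63.4% in the others. At that limit all 8 called members rose, against 15.4% of all probe sets. With burden given Mki67, 2 were called, 6 with arrays centred on their medians, 1 with metastasis as a covariate, and 0 without the 2 tumors of most extreme burden, in tumors of at least 1 g or with the RNAs without a poly(A) tail as a covariate. For burden given Mki67, 5.88% of all probe sets were called, 7.93% with centred arrays and 4.95% with metastasis as a covariate. In the fits with 0 members called, the shares were 3.67%, 1.65% and 2.7%, in the order named. Metastasis, the interaction and burden given the epithelial junction mean gave 0 in every alternative run. At most 0.817% of all probe sets were called in any of those runs. Median co-expression ran from 0.22 to 0.33. The causes were not tested.

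H4c14 was the only called member to change sign, with Mki67 by rank (0.0022). Slopes that were not called changed sign as follows. With burden, dim H2ac21 was 0.0052 with centred arrays, 0.0038 without N1202, 0.0045 in tumors of at least 1 g, 0.00030 with metastasis as a covariate and 0.027 by rank. H1f2 was -0.0026 with the RNAs without a poly(A) tail as a covariate and -0.013 on log2 burden. H4c14 was -0.020 on log2 burden and -0.0016 without the 2 extreme tumors. With Mki67, H1f3 was 0.025 with centred arrays, 0.014 after quantile normalization, 0.12 by rank and 0.27 at Mki67 of at least 11. H1f2 was 0.0055 with centred arrays, 0.00010 with tag number range as a block and 0.055 in tumors of at least 1 g. Dim H2ac21 was 0.022 without N1202, 0.083 at Mki67 of at least 11 and 0.049 in tumors of at least 1 g. H2ac15, with a slope of 0.25 over all tumors, was -0.42 at Mki67 of at least 11 and -0.16 in tumors of at least 1 g. No paired analysis was possible because each male gave 1 array and the labels give no replicate numbers: those used here follow the order of the samples and pair none.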
